A study of Equus caballus with 20 samples.

Results

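Antiviral effector genes of the interferon response were followed through the oviduct epithelium of pregnant and cyclic mares. The 8 genes are ISG15, MX1, MX2, IFI27, IFI35, IFI44, IFI44L and IFI6, which the deposited table lists under its older name 6-16. They were taken by these names from the 26740 features of the table, and all 8 were present and passed the filter on low values, which kept 14692 genes. RNA sequencing covered 20 libraries, 5 in each of 4 groups, all from Warmblood mares on day 4 after ovulation. Epithelial cells had been taken at the ampullary-isthmic junction, where the wide part of the tube meets the narrow part. Libraries PI1 to PI5 came from the ipsilateral and PC1 to PC5 from the contralateral oviduct of pregnant mares, and libraries CI1 to CI5 and CC1 to CC5 from the same sides in cyclic mares, where ipsilateral means the side of ovulation and cyclic mares were not pregnant. The labels used here name no age of the mares and no treatment that differed between groups.

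Interferons are secreted when cells sense foreign nucleic acids, and they act through receptors, Janus kinases and STAT and IRF factors that switch on many interferon-stimulated genes. ISG15 is a ubiquitin-like protein that is attached to other proteins, MX1 and MX2 are dynamin-like GTPases that block viral replication steps, and the IFI genes carry the name interferon-inducible. In ruminants, the trophoblast secretes interferon tau, a ruminant interferon, and ISG15 and MX genes of the uterus are known to respond to it. The study's title asks about an effect of the equine embryo on immune-related genes of the oviduct.

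In 3 of the 5 replicate numbers of pregnant mares, 7 of the 8 genes stood above every cyclic library, in both oviducts. In the other 2 numbers they were mostly within the cyclic range. The share of all genes that did the same was not counted. A looser condition was at least 3 of 5 pregnant libraries above every cyclic library of the same side. It held for 6.3% of all genes ipsilaterally and 7.97% contralaterally. The mean log2 difference of these 7 genes between pregnant and cyclic mares lay between 0.73 for IFI35 and 2.54 for IFI6, and IFI27 was the exception at about 0. None of the differences passed a test adjusted over all genes with limma, and the spread among the pregnant mares was wide.

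Recovered read totals ran from 2795168 in PI1 to 10126484 in CI2. Each of the 8 genes had at least 8 reads in every library, above the floor of 3 reads that a count of 0 allows, which covers counting error only. One unnamed feature took over 10% of the reads in PI1, PI4 and CI3, and the ipsilateral comparisons are also given without these 3 libraries. The epithelial markers EPCAM, CDH1 and CLDN4 summed to 2927 to 7428 normalized counts over the pregnant libraries and 3092 to 7065 over the cyclic ones, and 4 other epithelial markers were not found under their symbols. OVGP1, the oviduct-specific glycoprotein of secretory cells, had 0 to 13 reads per library, while the cilium markers FOXJ1 and DNAH5 had at least 1661 and 9674. Leukocyte markers were also detected in every library. In such bulk samples fewer cells of a type and less RNA per cell cannot be told apart.

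ISG15, the ubiquitin-like modifier, had 330.4, 33.1, 264, 381 and 22.4 TMM-normalized counts in PI1 to PI5, against 86.9, 16.1, 27, 22.4 and 40.7 in CI1 to CI5. Contralaterally it had 310.0, 21.7, 285, 461 and 46.6 in PC1 to PC5, against 19.8, 36, 33.6, 13.4 and 42.5 in CC1 to CC5. Replicate numbers 1, 3 and 4 of the pregnant mares were high in both oviducts, while numbers 2 and 5 lay at or near the cyclic range, so the groups overlapped. Its mean level was 206 ± 168 for PI libraries against 38.6 ± 28.5 for CI libraries, and 225 ± 187 for PC libraries against 29 ± 12.1 for CC libraries (SD, n = 5). On the log2 scale of the value plus a pseudocount of 0.5 CPM, ISG15 differed by 1.82 ± 0.81 ipsilaterally and 2.21 ± 0.81 contralaterally (SE). Neither difference passed the test across all genes (limma, Benjamini-Hochberg adjusted p = 0.999 and 1, unadjusted p = 0.0353 and 0.0125).

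**Figure D1:**
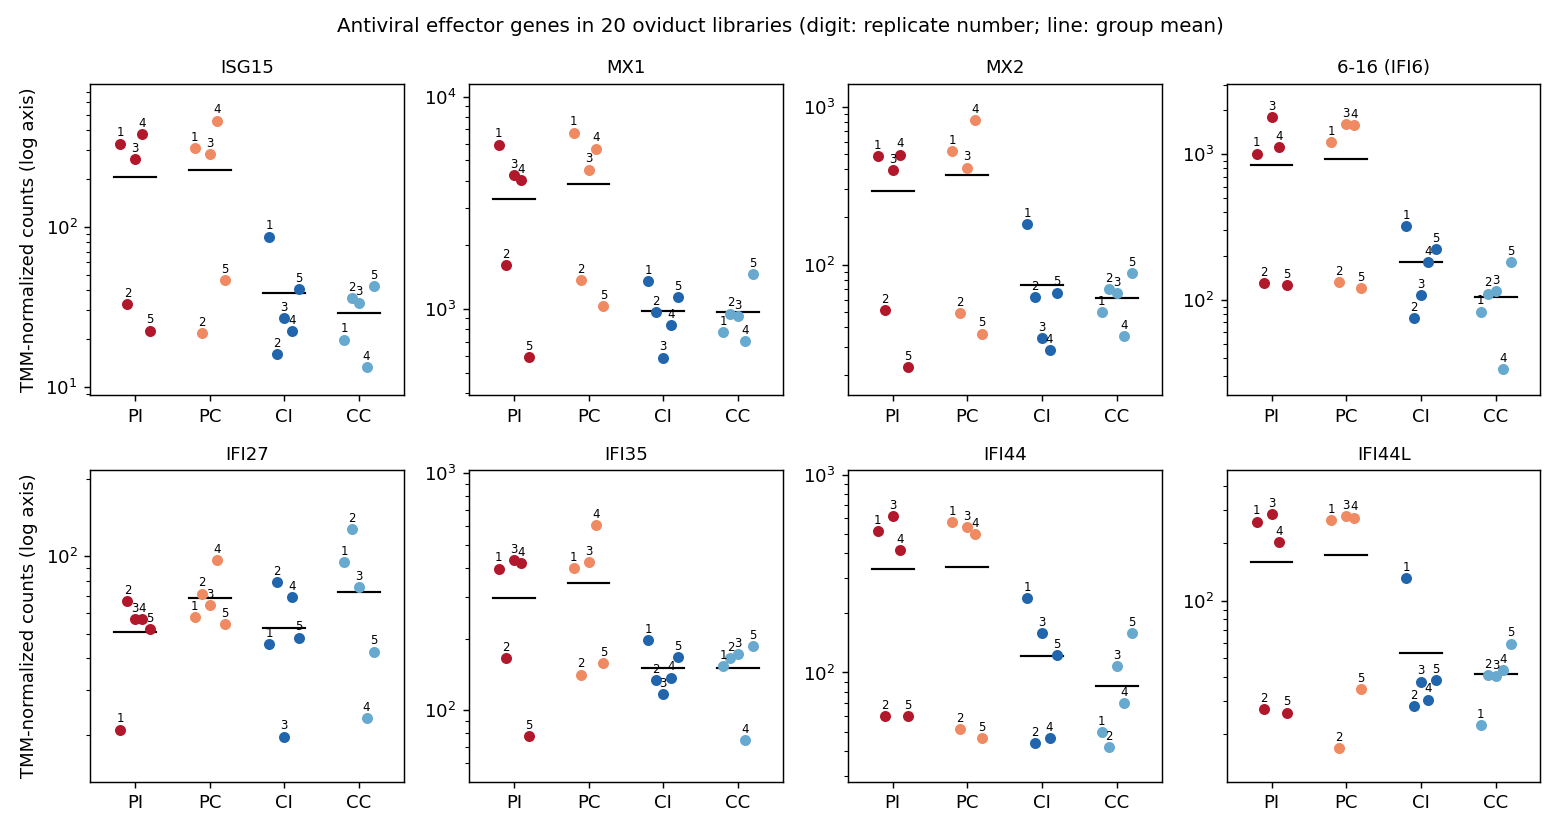
TMM-normalized counts of the 8 genes (log axis) in PI, PC, CI and CC libraries (pregnant then cyclic, ipsilateral before contralateral), 1 point per library with its replicate number, the line being the group mean (n = 5). In all genes but IFI27, pregnant numbers 1, 3 and 4 lie above the CI and CC libraries in both oviducts, and numbers 2 and 5 lie apart from them at a lower level.

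MX1, the cytoplasmic GTPase that blocks replication of RNA viruses, had 5939.9, 1611, 4273, 4051 and 591 normalized counts in PI1 to PI5, against 1346, 965, 589, 839 and 1133 in CI1 to CI5. In the other oviduct it had 6768, 1365, 4522, 5687 and 1028 in PC1 to PC5, against 777, 948, 927, 706 and 1453 in CC1 to CC5. Numbers 1, 3 and 4 were again highest on both sides, PI2 also stood above every CI library, and PI5 was at the level of the lowest CI library. MX1 differed by 1.41 ± 0.55 ipsilaterally and 1.69 ± 0.55 contralaterally (limma adjusted p = 0.999 and 1, unadjusted p = 0.0178 and 0.00586). Its paralogue MX2, next to MX1 in the RefSeq gene order of the horse, had the same 3 pregnant numbers on top, at 22.4 to 496 in PI against 28.8 to 179.6 in CI, and 36.6 to 822 in PC against 35.1 to 88.5 in CC. MX2 differed by 1.42 ± 0.86 and 1.73 ± 0.86 (limma adjusted p = 0.999 and 1). PI1, PI3 and PI4, and PC1, PC3 and PC4, held all MX2 values above those of the cyclic libraries of their side. How reads shared by the 2 paralogues were counted is not stated in the labels used here.

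IFI6, a small membrane protein known in human cells to oppose apoptosis and flavivirus replication, had 1009.9, 130.3, 1796, 1124 and 126 normalized counts in PI1 to PI5, against 321, 75.1, 108, 181 and 224 in CI1 to CI5. Contralaterally the values were 1208, 132, 1614, 1582 and 121 in PC1 to PC5, against 83, 110.4, 114, 33.4 and 183 in CC1 to CC5. Here PI3 held the highest value of all libraries, and numbers 2 and 5 of the pregnant mares stood inside the cyclic range on both sides. The difference was 1.65 ± 0.82 ipsilaterally and 2.54 ± 0.82 contralaterally (limma adjusted p = 0.999 and 1, unadjusted p = 0.0567 and 0.00534). The contralateral log2 difference ranked 2 from the top among all 14692 genes, and that of ISG15 ranked 6. DESeq2 on the recovered reads called IFI6 and MX1 contralaterally, both at adjusted p = 0.0492 with log2 differences of 3.14 and 2.00, whereas edgeR gave adjusted p = 0.638 for each. Over all alternatives the adjusted p ran from 0.0492 to 1.0 for both genes.

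IFI44 and IFI44L, interferon-inducible proteins of the cytoplasm, are neighbours in the RefSeq gene order. IFI44 had 518, 60.3, 618, 414 and 60.2 normalized counts in PI1 to PI5, against 238, 44.1, 158, 46.4 and 122 in CI1 to CI5. In the contralateral oviduct it had 574, 51.9, 541, 499 and 46.6 in PC1 to PC5, against 50.1, 42.1, 108, 70.1 and 159 in CC1 to CC5. Pregnant numbers 2 and 5 were among the lowest IFI44 libraries of the study, and CI1, CI3, CI5, CC3 and CC5 were above 100 normalized counts. IFI44 differed by 1.12 ± 0.79 ipsilaterally and 1.42 ± 0.79 contralaterally (limma adjusted p = 0.999 and 1). IFI44L ran from 26 to 283 in PI libraries against 28 to 131 in CI, and from 17 to 279 in PC against 22.4 to 59.8 in CC. Its differences were 1.17 ± 0.76 and 1.36 ± 0.76 (limma adjusted p = 0.999 and 1). PC2 held the lowest IFI44L value of all 20 libraries, and CI1 the highest of the cyclic ones.

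IFI35, a leucine zipper protein known to pair with NMI in human cells, showed the same libraries on top with a smaller range. Its mean normalized count was 298 ± 164 for PI against 151 ± 32.1 for CI, and 344 ± 195 for PC against 151 ± 44.1 for CC (SD, n = 5). Its log2 differences were 0.73 ± 0.44 and 1.02 ± 0.44 (limma adjusted p = 0.999 and 1). IFI27, an interferon-inducible protein known in human cells from mitochondria and the nuclear envelope, did not share the pattern. It had 21.1, 67.1, 56.9, 57 and 52 normalized counts in PI1 to PI5, against 45.4, 79.3, 19.8, 69.6 and 48.2 in CI1 to CI5. Contralaterally the values were 58.1, 71.6, 64.5, 97 and 54.3 in PC1 to PC5, against 94.9, 128, 75.8, 23.4 and 42.5 in CC1 to CC5. No pregnant library exceeded the highest cyclic library of its side, and the differences were 0.00 ± 0.40 (just below 0) and 0.11 ± 0.40 (limma adjusted p = 0.999 and 1).

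The lowest IFI27 values came from the shallowest libraries. Its 3 lowest values, 21.1 in PI1, 23.4 in CC4 and 19.8 in CI3, belonged to the 3 libraries with the fewest reads, at 2795168, 3407805 and 3856941. They rested on 9, 14 and 11 IFI27 reads, and the part of depth in the IFI27 pattern was not tested beyond the covariate. With log2 reads as a covariate, its difference was 0.44 ipsilaterally and −0.24 contralaterally, with the sign turned in both. The other 7 genes kept a positive difference on both sides under that covariate.

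Read as a group, 7 of the 8 genes had a log2 difference above 0 between PI and CI, where 48.1% of all genes had one, and all 8 between PC and CC, where the share was 51.8%. A difference above 1 was found for 6 of the 8 ipsilaterally (0.885% of all genes) and for 7 contralaterally (1.75%). The median over the 8 was 1.29 ipsilaterally and 1.55 contralaterally, against −0.01 and 0.01 over all genes. For 7 of the 8, at least 3 of 5 pregnant libraries stood above every cyclic library of the same side, which held for 6.3% of all genes ipsilaterally and 7.97% contralaterally. An unadjusted p under 0.05 with a higher level in pregnant mares was found for 2 of the 8 ipsilaterally (1.5% of all genes) and for 4 contralaterally (2.75%). None of the 8 passed the adjusted test, and neither did any other gene (0% of 14692 in each comparison). Limma gave 514 genes with an unadjusted p under 0.05 ipsilaterally and 669 contralaterally. On the recovered reads edgeR called 0 genes on either side (494 and 838 unadjusted), and DESeq2 called 0 ipsilaterally and 12 contralaterally (560 and 950 unadjusted). The median over the 8 genes was 0.46 ipsilaterally without PI1, PI4 and CI3, which left PI3 as the one high PI library. ISG15 was then at 0.75, IFI6 at 0.80, MX1 at 0.60, MX2 at 0.20, IFI35 at 0.17, IFI44 at 0.57 and IFI44L at 0.36.

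**Figure D2:**
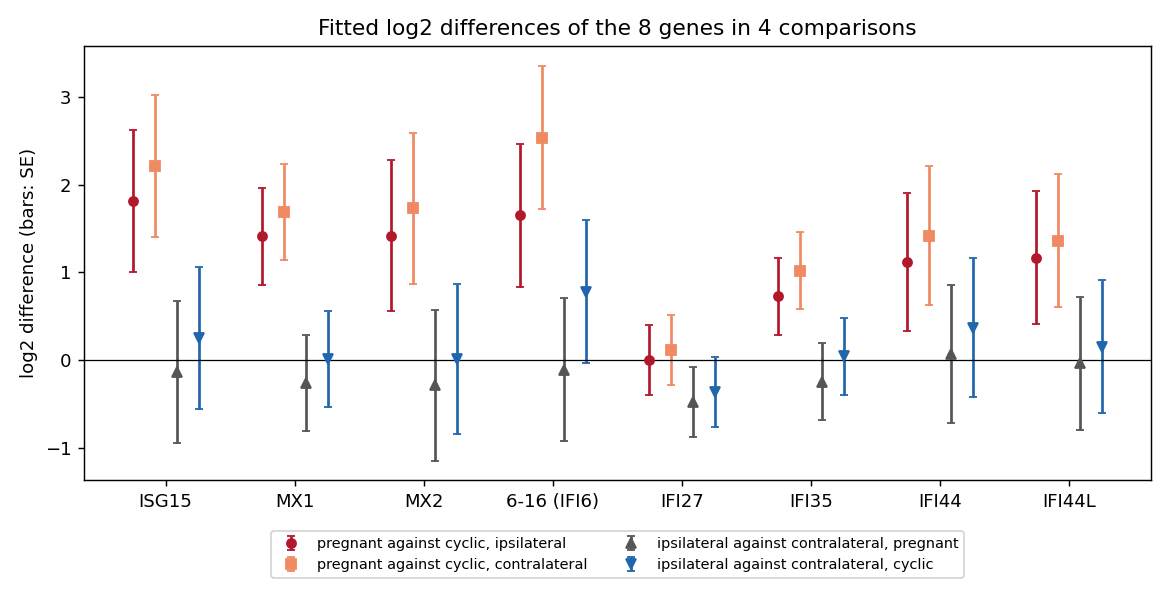
Log2 differences fitted by limma for the 8 genes (vertical axis, bars are SE) in pregnant against cyclic mares on each side and in ipsilateral against contralateral oviducts of each status, 5 libraries per group. The pregnancy differences of 7 genes lie between 0.73 and 2.54, IFI27 lies near 0, and the differences between sides lie within 1 unit of 0.

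The 2 sides are not separate evidence, because the libraries of a pregnant number moved together across both oviducts. Over all 14692 genes, deviations from the group mean of PI and PC libraries with the same number correlated at 0.53 to 0.70, and each PI library correlated best with the PC library of its own number. The labels do not say whether libraries with the same number came from one mare. Number 2 also matched across status, PI2 correlating best with CI2 among CI libraries (0.587) and PC2 with CC2 among CC libraries (0.488). What a shared number stands for is therefore not known. In cyclic mares the same-number correlations ran from −0.04 to 0.68, and 2 of the 5 CI libraries correlated best with another number. The pregnancy difference was therefore also taken over the means of both oviducts of a number, 5 pregnant against 5 cyclic. ISG15 then differed by 2.01 ± 0.70, IFI6 by 2.09 ± 0.71, MX2 by 1.58 ± 0.76 and MX1 by 1.55 ± 0.49. IFI44 differed by 1.27 ± 0.69, IFI44L by 1.26 ± 0.65, IFI35 by 0.88 ± 0.38 and IFI27 by 0.05 ± 0.27. All 8 were above 0 (49.9% of all genes) and 6 above 1 (0.81%), with a median of 1.41. None passed (limma adjusted p = 0.999 for each, 0% of all genes called, 649 with an unadjusted p under 0.05), with an unadjusted p under 0.05 for 4 of the 8 (2.25% of all genes were higher at that level), namely 0.00763 for MX1, 0.0116 for IFI6, 0.0138 for ISG15 and 0.0387 for IFI35. Those of the other 4 genes ran from 0.061 for MX2 to 0.851 for IFI27.

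Between the oviducts of pregnant mares none of the 8 differences passed the test. ISG15 was 0.09, 0.55, −0.11, −0.27 and −0.96 log2 units higher ipsilaterally in numbers 1 to 5, negative values being lower. For IFI6 these differences were −0.26, −0.02, 0.15, −0.49 and 0.06, and for IFI44 they were −0.15, 0.21, 0.19, −0.27 and 0.35. The largest difference within a number, of either sign, was 0.35 (IFI44) to 1.00 (IFI35) for the 7 genes other than IFI27, whose number means spanned 2.14 (IFI35) to 4.34 (MX2) units. For IFI27 the largest difference within a number was 1.34, more than the 1.01 spanned by its number means. The fitted difference between PI and PC was −0.14 ± 0.81 for ISG15, −0.26 ± 0.55 for MX1, −0.11 ± 0.82 for IFI6 and −0.48 ± 0.40 for IFI27, which was lower ipsilaterally in all 5 numbers. These SEs ignore the numbers. With the number as a fixed block they were 0.18, 0.13, 0.11 and 0.20, and 0 genes were called (limma, IFI27 unadjusted p = 0.0349, adjusted p = 0.323). The IFI27 differences in numbers 1 to 5 were −1.34, −0.09, −0.17, −0.74 and −0.06, and PI1 had the fewest reads of all libraries. The fitted IFI27 difference was −0.21 without PI1, and 0.04 ± 0.24 with log2 reads as a covariate. In the fit without block or covariate, 1 of the 8 genes was above 0, where 44.6% of all genes were. The median was −0.20, and none passed (limma adjusted p = 0.999 for each, 0% of all genes called). This median depended on single libraries, at 0.39 without PI5 and −0.58 without PC2. Without PI1, PI4 and CI3 it was −0.80, with ISG15 at −1.15 and MX2 at −1.33, and the high PC libraries of numbers 1 and 4 then had no PI counterpart.

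The SD of the difference between sides over the 5 numbers was 0.26 to 0.55 for the 8 genes in pregnant mares and 0.56 to 1.27 in cyclic mares, if the numbers of cyclic libraries are read as pairs. The contrast in SD was not tested. In cyclic mares IFI44L was 2.40, −0.50, −0.09, −0.47 and −0.59 log2 units higher ipsilaterally in numbers 1 to 5, and ISG15 was 1.98, −1.03, −0.29, 0.63 and −0.06. Number 1 had the largest ipsilateral excess in both genes, and the remaining numbers of IFI44L were below 0. The fitted CI against CC difference was 0.25 ± 0.81 for ISG15, 0.78 ± 0.82 for IFI6 and 0.15 ± 0.76 for IFI44L, with 7 of 8 above 0 (51.4% of all genes), a median of 0.09 and none passing (limma adjusted p = 1.0 for each, 0% of all genes called). The interaction of pregnancy and side, the PI against CI difference minus the PC against CC difference, was below 0 for all 8, from −0.89 ± 1.15 for IFI6 to −0.11 ± 0.56 for IFI27, where 43.4% of all genes were above 0. None passed (limma adjusted p = 1.0 for each, 0% of all genes called), so this fit, which ignores the numbers, detected no difference between the sides in the pregnancy effect. With the number of each status as a fixed block, cyclic numbers also read as pairs, the SE fell to 0.46 for IFI6 and 0.47 for ISG15. The unadjusted p was then 0.0738 for IFI6 (limma), and 0 genes were called. The median interaction was −0.30, and it was 0.17 without PI5 and −0.80 without PC2. Without PI1, PI4 and CI3 it was −1.04, with ISG15 at −1.46, MX1 at −1.09, MX2 at −1.53 and IFI6 at −1.74. With the leukocyte marker score as a covariate, 3 of the 8 were above 0 and the median was −0.0075.

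**Figure D3:**
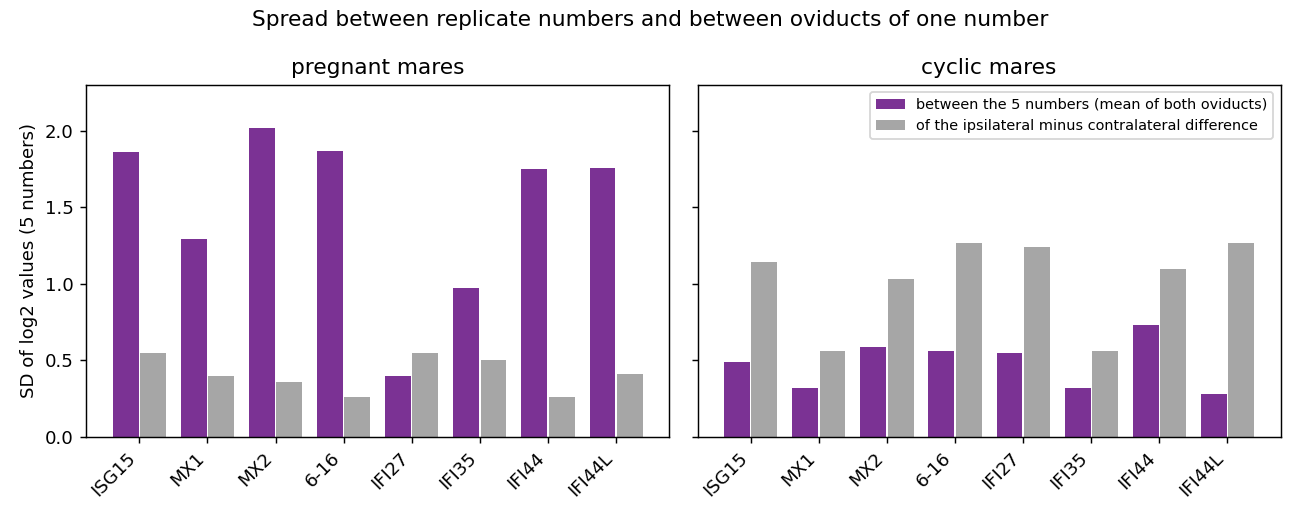
Standard deviation of log2 values over the 5 replicate numbers, in pregnant and in cyclic mares, of the mean of both oviducts of a number and of the ipsilateral minus contralateral difference. In pregnant mares the SD between numbers was 0.97 to 2.02 for the 7 genes other than IFI27 and exceeded that between oviducts, while in cyclic mares it was the smaller of both for all 8 genes. For unrelated libraries the SD of a difference is 2 times that of a mean by arithmetic, so the cyclic bars say nothing of pairing.

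The spread among pregnant libraries was wide for most of these genes. Over the 10 pregnant libraries the SD of log2 values was 1.92 for MX2, and 15 of the 14692 genes varied that much or more, MX2 included. It was 1.77 for ISG15 and 1.77 for IFI6, 1.67 for IFI44L and 1.66 for IFI44, values reached by 0.17% to 0.306% of all genes. MX1 stood at 1.24, IFI35 at 0.95 and IFI27 at 0.52, against a median of 0.37 over all genes. Over the 10 cyclic libraries the SD was 0.72 for ISG15, 0.73 for MX2 and 0.40 for MX1, where the median of all genes was 0.40. The highest pregnant library had 36.6 times the MX2 level of the lowest, PC4 against PI5, and in cyclic mares this ratio was 6.24. IFI27 was the one gene of the 8 whose SD was larger in cyclic than in pregnant libraries, at 0.80. The difference in spread between pregnant and cyclic libraries was not tested.

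Genes other than IFI27 varied together from library to library. As a description over 20 libraries that differ in depth and may share mares, Pearson's r of log2 values was 0.85 to 0.96 over the 21 pairs without IFI27 and −0.26 to 0.17 over the 7 pairs with it. Within the 10 pregnant libraries these ranges were 0.92 to 0.99 and −0.16 to 0.02. Within the 10 cyclic libraries the pairs without IFI27 had lower values, from 0.33 for IFI35 with IFI44 to 0.86 for ISG15 with IFI6. MX1 with MX2 stood at 0.97 in pregnant and 0.83 in cyclic libraries, and the neighbours IFI44 and IFI44L at 0.99 and 0.76. IFI27 ran opposite to IFI44 in cyclic libraries, with r of −0.61.

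**Figure D4:**
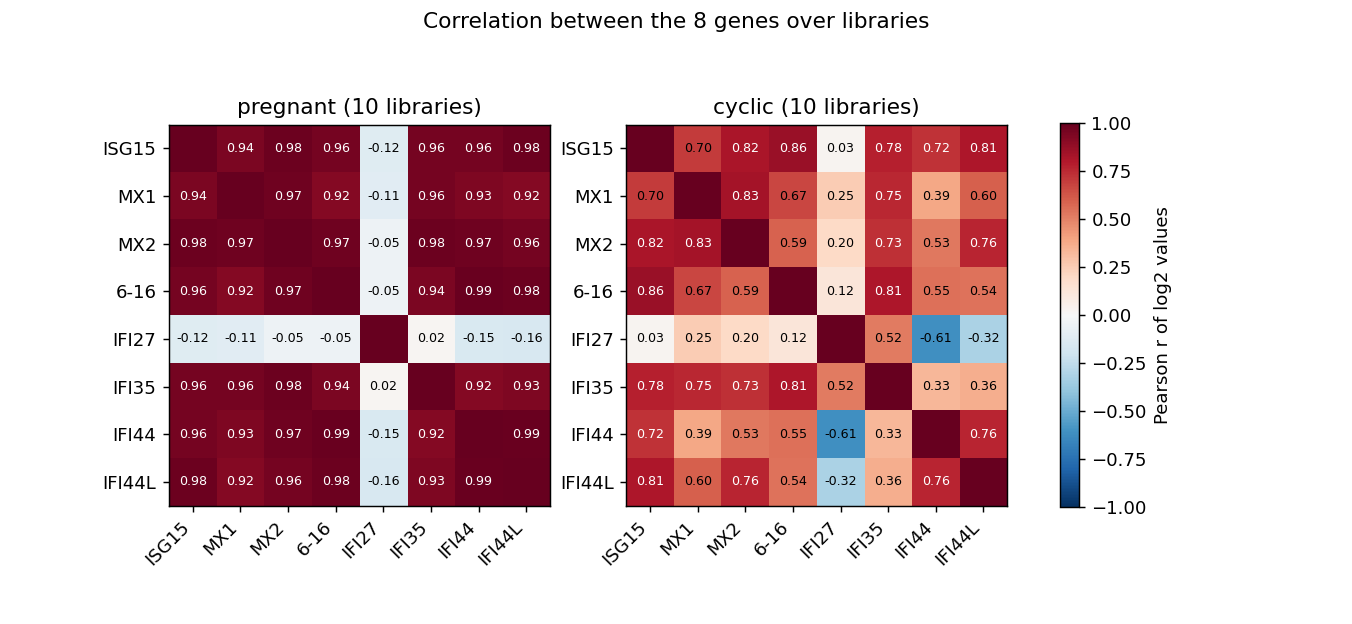
Pearson's r of log2 values for each pair of the 8 genes (both axes list the genes) over the 10 pregnant and the 10 cyclic libraries, red for positive and blue for negative values. IFI27 stands apart from the other 7 genes in both panels, and r among those 7 is 0.92 to 0.99 in pregnant and 0.33 to 0.86 in cyclic libraries.

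Among the genes with a symbol outside the group, those whose log2 values over the 20 libraries were most like the mean profile of the 8 are named here as a description. The closest was OAS2, which makes the activator of the antiviral ribonuclease L, with r of 0.974. It was followed by PLAC8 at 0.968, IRF9, the DNA-binding part of the interferon-induced factor ISGF3, at 0.968, DHX58, an RNA sensor regulator, at 0.965 and the RNA editing enzyme ADAR at 0.964. DTX3L, RNF213 and IRF7 came next at 0.961, 0.959 and 0.957. For the genes so named, r with the mean profile was 0.97 to 0.99 within the 10 pregnant libraries. Within the 10 cyclic libraries it was lower, from 0.64 for RNF213 to 0.86 for PLAC8. Taken singly, ISG15 was most like IFIT1 (0.977), MX1 like ZNFX1 (0.976), MX2 like PLAC8 (0.972), IFI6 and IFI35 like OAS2 (0.955 and 0.952), IFI44 like SAMD9L (0.969) and IFI44L like IFIT1 (0.975). The next 2 genes were OAS2 and DHX58 for ISG15 (0.974 and 0.973), HERC5 and HERC6 for MX1 (0.967 and 0.963), HERC6 and RNF213 for MX2 (0.969 and 0.966), ADAR and DHX58 for IFI6 (0.953 and 0.951). They were PLAC8 and ZNFX1 for IFI35 (0.951 and 0.951), IFIT4 and SAMD9 for IFI44 (0.968 and 0.967), XAF1 and IFIT4 for IFI44L (0.969 and 0.965). Within the 10 cyclic libraries r of these single likenesses ran from 0.69 (IFI35 with PLAC8) to 0.95 (IFI44 with SAMD9). IFI27 was most like B4GAT1 and ALG2, glycosylation enzymes, and RABAC1, a Golgi protein, with r of 0.928, 0.928 and 0.914, and none of its 3 closest genes was among those named for the other 7. The 3 lowest IFI27 values came from the 3 libraries with the fewest reads, and the part of depth in this likeness was not tested.

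Enzymes that handle ISG15 were read next. Of 7 listed, UBA7, UBE2L6, HERC5, HERC6 and ARIH1 were found and kept, and 4 were higher in pregnant mares on each side, none passing (limma, 0 called), with medians of 0.74 ipsilaterally and 1.13 contralaterally. UBA7, the E1 enzyme that activates ISG15, differed by 0.46 ± 0.38 ipsilaterally and 0.78 ± 0.38 contralaterally, on the log2 scale. UBE2L6, the E2 enzyme of ISG15, differed by 0.93 ± 0.60 ipsilaterally and 1.13 ± 0.60 contralaterally. HERC5, the main ISG15 ligase in human cells, differed by 0.74 ± 0.48 ipsilaterally and 1.18 ± 0.48 contralaterally, and its relative HERC6 by 1.81 ± 0.85 ipsilaterally and 1.94 ± 0.85 contralaterally. ARIH1, another ubiquitin ligase, differed by −0.07 ± 0.14 ipsilaterally and −0.07 ± 0.14 contralaterally.

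In the other branches of the interferon pathway none of the listed genes passed either (limma). Of the OAS and IFIT families with RSAD2 and CMPK2, 8 of 8 kept were higher in pregnant mares on each side, with medians of 0.90 and 1.07. Of the sensors of foreign nucleic acid, 8 of 8 were higher (0.62 and 1.12), and so were 8 of 8 interferon-regulated factors (0.58 and 1.02). Among 19 other interferon-stimulated effectors 18 were higher on each side (0.76 and 1.09), the exception being SAMHD1 at −0.18 ± 0.23 ipsilaterally and −0.36 ± 0.23 contralaterally. Genes that respond to interferon gamma were higher in 8 of 12 ipsilaterally and 12 of 12 contralaterally (0.29 and 1.02). Upstream, 2 of 8 interferon, receptor and Janus kinase genes kept were higher on each side, with medians of −0.06 and −0.03. IFNB1, IFNL3, IFNAR2 and IL10RB were not found under their symbols. The receptor chain IFNAR1 differed by −0.23 ± 0.21 ipsilaterally and −0.02 ± 0.21 contralaterally, and the kinase TYK2 by −0.03 ± 0.15 ipsilaterally and −0.09 ± 0.15 contralaterally. IFNG, the gene of interferon gamma, had 0 to 2 reads per library and IFNE, an interferon of the reproductive tract, 0 to 7, both under the filter, and IFNK, known from keratinocytes, differed by 0.27 ± 0.44 ipsilaterally and −0.42 ± 0.44 contralaterally. Of 4 other kept genes listed for a similar name, IFI30, IFRD1, IFRD2 and IFI27L2, 0 were higher ipsilaterally and 2 contralaterally. The 4 kept negative regulators, PIAS1, PTPN6, PTPN11 and IRF2, had medians of 0.04 and 0.10. SOCS1 and SOCS3, with at most 4 and 12 reads in any library, fell under the filter and USP18 was not found, so these 3 were not read.

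Leukocyte markers moved with the antiviral genes. Of 14 T cell, NK cell and general leukocyte markers found of 15 listed, 13 were kept, and 12 were higher in pregnant mares ipsilaterally and 13 contralaterally, with medians of 0.80 and 1.05 and none passing (limma). Their summed level ran from 298 to 894 normalized counts in PI and 227 to 1024 in CI, and from 426 to 1672 in PC and 253 to 532 in CC. KLRD1 had 0 reads in all but 1 library. The order of libraries was not the same as for the antiviral genes. PI2 had a mean leukocyte log2 value of 5.41, equal to that of PI4 and above those of PI1 and PI3 (5.14 and 4.96), but an antiviral mean of 6.64 against 8.84 in PI4. CI1, the highest CI library in both, had 5.64 and 7.62. PC4 (6.43 and 9.33) and CC5 (4.73 and 7.06) were also the highest of their groups in both. PI5 (3.97 and 6.07) and CC4 (3.51 and 5.84) were the lowest of theirs in both. In the other groups the lowest libraries differed. CI5 had the lowest leukocyte value of CI (3.65) with an antiviral value of 6.87, while CI3 had the lowest antiviral value (6.28). In PC these were PC5 for leukocytes (4.44) and PC2 for the antiviral genes (6.42). Macrophage and monocyte markers were at medians of −0.07 and 0.06 (7 of 7 kept). Stromal markers were lower in 7 of 7 on each side (medians −0.42 and −0.46), and multiciliated markers higher in 6 of 6 (0.26 and 0.29). Endothelial markers had medians of 0.27 and 0.08, smooth muscle markers of 0.14 and 0.10, oviduct secretory markers of 0.10 and 0.28, and the 3 plasmacytoid dendritic cell markers kept of −0.19 and −0.07. The neutrophil and erythrocyte markers found (CSF3R, MPO, HBB and SLC4A1) had at most 4 reads in any library. None of these markers passed, and the part of other cell types in the antiviral pattern was not tested beyond the leukocyte covariate.

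With the mean leukocyte value as a covariate, the median over the 8 antiviral genes was 0.56 ipsilaterally and 0.50 contralaterally. ISG15 was then at 1.08 and 1.08, IFI6 at 1.01 and 1.56, MX1 at 0.87 and 0.86 and MX2 at 0.47 and 0.28. Over both oviducts the median was 0.46 with this covariate, with ISG15 at 0.85, IFI6 at 1.06, MX1 at 0.69, IFI44 at 0.47, IFI44L at 0.46 and IFI35 at 0.12. MX2 was at 0.02 over both oviducts with the covariate, against 1.58 without it. The 7 genes other than IFI27 were above 0 on each side with the covariate, IFI27 was below 0 at −0.18 and −0.16, and none passed (limma).

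**Figure D5:**
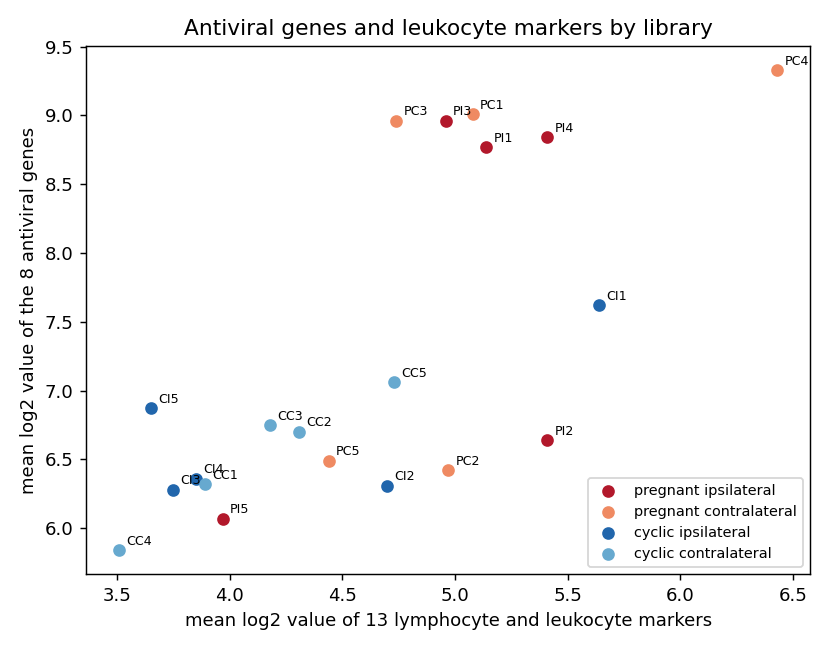
Mean log2 value of 13 leukocyte markers (horizontal axis) and of the 8 antiviral genes (vertical axis) in each of the 20 libraries, coloured by group. Pregnant numbers 1, 3 and 4 lie between 8.77 and 9.33 on the vertical axis at leukocyte values of 4.74 to 6.43, while PI2, PC2 and CI1 reach 5.41, 4.97 and 5.64 on the horizontal axis with antiviral values of 6.64, 6.42 and 7.62.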

How the data were processed

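Per the labels' protocols, libraries were made from total RNA with a stranded kit and ribosomal RNA removal, but the molecule is labelled as polyA RNA, so what was captured is uncertain. CASAVA 1.8 is named per the submitters' processing notes. The aligner, counter, strand setting, genome build and annotation were not given in the sources used here. The authors deposited a signal, TMM-normalized counts per gene, in which each library's counts are multiplied by 1 factor. All values (100%) were whole multiples of 1 read within 0.01 reads, which gave the reads back.

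Genes above 1 CPM in at least 5 libraries were kept, 14692 of 20350 with reads. Log2 of the value plus 0.5 CPM (3.03 normalized counts), a scale on which folds of low genes are understated, was fitted with limma 3.58.1 (R 4.3.3) as 4 group means over 20 libraries, with trend and robust moderation, 2-sided tests and Benjamini-Hochberg adjustment over all genes at 0.05. Pregnancy over both oviducts was fitted on 10 means. EdgeR 4.0.16 and DESeq2 1.42.0 were run on the recovered reads as alternatives, and the procedure was tested on simulated data. The replicate numbers paired PI with PC libraries by the correlation of their deviations (0.53 to 0.70). Between CI and CC, numbers 1, 2 and 5 matched best with their own number (0.295, 0.679 and 0.621), and numbers 3 and 4 did not. Libraries of a group all differed by more than sampling noise (lowest chi-square per degree of freedom 17.3). The p-values measure the spread between these libraries. The fit of 4 group means takes 1 spread per gene for all groups, so its SEs are the same on both sides. The spread was not equal, with a log2 SD of ISG15 of 1.89 in PI and 1.87 in PC, against 0.86 in CI and 0.61 in CC. IFI27 alone of the 8 genes varied more in cyclic than in pregnant libraries. The 8 genes and all lists were chosen with earlier results of these data known. Named genes are the 8 members, the genes most like them by Pearson's r (3 per member and 8 for the mean profile), and examples from the lists. No sequences are printed.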

Additional observations from a re-analysis of the deposited data

Results flagged for a closer look

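Of 32 sets of 5 libraries (8 genes in 4 groups), 2 held a library whose gap to its nearest neighbour took most of the group's range on untransformed counts. Chance alone marks about 1 in 20 sets of normally spread values, which such counts need not be. The 8 genes also share their libraries, so the sets are not independent. Both flagged values were in CI1. MX2 had 179.6 normalized counts in CI1, against 28.8 to 66.4 in CI2 to CI5. IFI44L had 131 in CI1, against 28 to 38.6 in CI2 to CI5. CI1 also had the highest leukocyte marker sum of the CI libraries, 1024 normalized counts against 227 to 521 in the others, and its part in the 2 values was not tested.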

How the results depend on the processing

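The pregnancy difference of the 7 genes other than IFI27 was above 0 in all 238 values ipsilaterally, 238 contralaterally and 140 over both oviducts that the alternatives gave, but its size moved: MX2 was 0.0162 over both oviducts with the leukocyte score (1.58 without) and 0.199 ipsilaterally without PI1, PI4 and CI3 (1.42 with them), and IFI35 was 0.123 and 0.174 there. By construction, many of the 238 values per side repeat the main one. A difference stays unchanged when a library outside the 2 groups is left out, only those groups are fitted or a block is added. None of the values passed adjustment apart from IFI6 and MX1 contralaterally with DESeq2 (log2 differences of 3.14 and 2.0). The medians over the 8 genes ran from 0.46 to 1.78 ipsilaterally, 0.50 to 2.03 contralaterally and 0.46 to 1.88 over both oviducts, −0.80 to 0.39 between PI and PC, −0.10 to 0.32 between CI and CC and −1.04 to 0.17 for the interaction. Between PC and CC, 12 genes were called with DESeq2, 6 with library weights, 1 with CPM without TMM and 1 with log2 reads as a covariate, against 0, and every other count of calls was 0 under all alternatives run. The fits with the replicate number as a block gave medians of 1.29 (PI against CI), 1.55 (PC against CC), −0.20 (PI against PC), 0.09 (CI against CC), −0.30 (interaction) and 1.41 (both oviducts), called 0 genes each and changed no call. Each number occurs once per group, so a block cannot move these medians and they are no check. It changed the SEs, and 2106 genes had an unadjusted p under 0.05 between PI and PC with the fixed block, against 112 (limma). With CPM without TMM, log2 differences whose sign turned were in CI against CC MX1 −0.0632, MX2 −0.0552, IFI35 −0.0326, in pregnancy over both oviducts IFI27 −0.00303. With library weights, values of turned sign were in PC against CC IFI27 −0.18, in PI against PC ISG15 0.0863, MX2 0.0109, IFI6 0.166, IFI44L 0.165, in CI against CC MX2 −0.0248, IFI35 −0.0922, in the interaction MX2 0.0358, IFI27 0.0946, IFI44 0.22. With the leukocyte score they were in PC against CC IFI27 −0.164, in PI against PC ISG15 0.0292, IFI6 0.0387, IFI44L 0.106, in CI against CC MX1 −0.15, MX2 −0.267, IFI35 −0.0945, IFI44L −0.0332, in the interaction MX1 0.0123, MX2 0.199, IFI44L 0.139, in pregnancy over both oviducts IFI27 −0.352. With log2 reads they were in PI against CI IFI27 0.439, in PC against CC IFI27 −0.236, in PI against PC IFI27 0.0423, IFI44 −0.229, in CI against CC MX2 −0.0237, IFI35 −0.0108, in the interaction IFI27 0.675. With edgeR they were in PC against CC IFI27 −0.0892, in PI against PC IFI44 −0.0197, in the interaction IFI27 0.0528. With DESeq2 they were in PC against CC IFI27 −0.0907, in the interaction IFI27 0.0691. Without PI1, PI4 and CI3 (over both oviducts chosen after seeing the data, median 1.46) the turned value was in PI against PC IFI44 −0.646. Leaving out 1 library or number at a time also turned the sign of some values, with ranges in PI against CI IFI27 −0.292 to 0.264. Ranges were in PC against CC IFI27 −0.219 to 0.358. Ranges were in PI against PC ISG15 −0.764 to 0.434, MX1 −0.649 to 0.256, MX2 −0.884 to 0.392, IFI6 −0.65 to 0.386, IFI35 −0.517 to 0.154, IFI44 −0.457 to 0.52, IFI44L −0.65 to 0.431. Ranges were in CI against CC ISG15 −0.0856 to 0.473, MX1 −0.119 to 0.178, MX2 −0.371 to 0.26, IFI35 −0.189 to 0.132, IFI44L −0.227 to 0.301. Ranges were in the interaction ISG15 −1.01 to 0.186, MX1 −0.66 to 0.245, MX2 −0.898 to 0.378, IFI27 −0.401 to 0.215, IFI35 −0.557 to 0.114, IFI44 −0.828 to 0.149, IFI44L −0.799 to 0.281. Ranges were in pregnancy over both oviducts IFI27 −0.0581 to 0.264. The causes were not tested. IFI27 rested on 9 to 209 reads, the fewest being in the shallowest library.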
